A study of Mus musculus with 6 samples.

Results

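Reduced representation bisulfite sequencing (RRBS) of mouse CD8+ T cells was used to compare both human STAT5B transgenes together with wild-type (WT), in 4 transgenic libraries and 2 WT libraries. The autosomes were divided into tiles of 5 kb, and 113677 of the 372469 tiles with any listed CpG had at least 3 CpGs covered by at least 5 reads in all 6 libraries. A tile was a member when its 4 transgenic values were all above, or all below, both of its WT values. For the methylation level, the mean over the 1136663 CpGs used, 16001 tiles were members, of which 6757 were higher and 9244 lower in the transgenic libraries. For the reads in a tile per 1000000 CpG reads of its library (RPM), 18373 tiles were members. The rule was then the readout itself, so the levels of the member tiles are a description and carry no test of their own.

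The cells were CD8+ T cells enriched from lymph nodes of 13-week-old C57BL/6N mice (C57BL/6NCrl in the methods), with 2 libraries per genotype. The genotypes were wt, hSTAT5B +/T and hSTAT5B N642H +/T. Both transgenes carry human STAT5B in a vector with Vav1 regulatory DNA, which drives expression in hematopoietic cells, and each is represented by 1 selected mouse line. The hSTAT5BN642H mice were diseased when the cells were taken. The methods describe the WT mice as purchased and the transgenic lines as bred in house, so colony and transgene cannot be told apart. None of the sources used here says whether libraries of a genotype came from separate mice, and the p-values below measure only the spread between these libraries.

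STAT5B is a transcription factor that is activated by JAK kinases downstream of cytokine receptors and moves to the nucleus as a dimer. N642H is an activating change in its SH2 domain, the part that holds the dimer together, and is known from human T cell neoplasia. RRBS cuts DNA with MspI at CCGG and sequences the ends of the fragments after bisulfite treatment, so it reads CpG-rich promoters and a scattered sample of the remaining CpGs. Methylation of CpGs is generally high in gene bodies and between genes and low in active promoters and enhancers. In bulk cells a tile level can move because each cell changed or because the share of a cell type changed, and these cannot be told apart.

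Sequences of 7 stretches show some of the CpGs behind the results below. They are written for the + strand of GRCm38 (the RefSeq GRCm38.p6 genome), with the CpGs used for the tile level in capitals except in Stat5b. There the capitals mark unused CpGs with fewer than 10 reads in each WT library and at least 50 in each transgenic library. The Stat5b CpG at position 100798297, also unused but with fewer transgenic reads, is in lower case. The first 2 lay lower in all transgenic libraries: an intron of Cd8b1 (chr6:71323177-71323273) and the intergenic tile with the widest gap (chr10:117981486-117981549). The next 3 lay higher: introns of Lef1 (chr3:131173663-131173818) and Tet1 (chr10:62884304-62884379), and a stretch in Meis1 (chr11:18885941-18885993). The last 2 are where transgenic libraries held many more reads, in an intron of Vav1 (chr17:57290620-57290738) and a coding exon of Stat5b (chr11:100798227-100798301). The used Cd8b1 CpGs at positions 71323034 and 71323075, which held the most reads in that tile, lie outside the stretch shown.
Cd8b1: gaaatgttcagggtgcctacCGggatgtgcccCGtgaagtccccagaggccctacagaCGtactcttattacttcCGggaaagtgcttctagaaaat
intergenic chromosome 10: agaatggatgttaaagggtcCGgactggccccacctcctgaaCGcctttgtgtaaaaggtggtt
Lef1: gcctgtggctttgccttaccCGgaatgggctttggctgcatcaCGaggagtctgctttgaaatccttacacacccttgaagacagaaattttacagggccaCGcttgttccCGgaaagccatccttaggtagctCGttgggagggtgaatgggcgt
Tet1: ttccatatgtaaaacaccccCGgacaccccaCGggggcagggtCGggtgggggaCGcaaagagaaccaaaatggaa
Meis1: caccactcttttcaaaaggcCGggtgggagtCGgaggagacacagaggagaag
Vav1: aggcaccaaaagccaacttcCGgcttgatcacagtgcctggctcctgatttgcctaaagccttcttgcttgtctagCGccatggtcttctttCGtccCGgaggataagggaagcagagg
Stat5b: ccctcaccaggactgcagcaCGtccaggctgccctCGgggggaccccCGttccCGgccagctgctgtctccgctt

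The libraries held between 43291086 and 67007186 reads on CpGs, counted once for each CpG that a read covers. WT libraries listed 3445555 and 3067773 CpGs, more than any transgenic library (2597893 to 2779703), at a median depth of 5 to 11 reads per CpG over the 6 libraries. A single CpG on chromosome 2 took 6.86% to 11.2% of a library's reads. The share of reads on chromosome X was 2.70% to 2.78% and that on chromosome Y 1.03% to 1.13%. Cd8a, which with Cd8b1 encodes the CD8 coreceptor, set WT replicate 1 apart: its tile chr6:71370001-71375000 had levels of 49.4% and 17% in WT, 18% and 25.2% in hSTAT5B, and 10.1% and 5.63% in hSTAT5BN642H. The Cd4 tile chr6:124865001-124870000 lay between 88.8% and 95.8% in all libraries, without separation of genotypes. The methods name no molecular identifiers, so counts of reads are not counts of molecules.

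The mean level over all tested tiles was close in transgenic and WT libraries. It was 77.5% and 78.0% in WT, 77.9% and 77.8% in hSTAT5B, and 76.9% and 77.1% in hSTAT5BN642H. The transgenic mean was 77.4% ± 0.519 (SD, n = 4) and the WT mean 77.7% ± 0.386 (SD, n = 2). The difference of -0.310 percentage points was within the spread (two-sided exact permutation test, p = 0.533). With 2 libraries against 4, the smallest one-sided p of this test is 0.0667 and the smallest two-sided p is larger. A p below 0.05 was therefore out of reach. The difference ran from -0.583 without WT replicate 1 to -0.0376 without WT replicate 2, and was 0.0420 in tiles with at least 10 CpGs.

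Of all tested tiles, 5.94% were higher and 8.13% were lower in all 4 transgenic libraries, 14.1% together. Without WT replicate 2 there were 23291 higher and 22534 lower, under a rule that fewer libraries meet more easily, so the larger number of lower tiles was not seen without that library. Tile by tile, limma called 0 tiles (0%) between transgenic and WT, with a smallest Benjamini-Hochberg adjusted p of 0.681. At an unadjusted limma p below 0.05 there were 7675 tiles, 6.75% of those tested. A quasi-binomial fit to methylated and total reads, its dispersions moderated by limma, called 341 tiles (0.3%), of which 112 were higher members and 65 lower members. Between these 2 models the number of calls thus went from 0 to 341.

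The gaps between the genotypes were mostly small. The median member tile differed by 4.06 percentage points where higher and by -3.96 where lower, and across all tested tiles the median was -0.301. Replicates of the same genotype differed by a median of 2.35 points in WT, 2.36 in hSTAT5B and 2.30 in hSTAT5BN642H over all tested tiles. The distance between the nearest transgenic and WT library was under 1 point in 3401 higher and 4870 lower members. It reached 5 points in 478 and 489 members, and 10 points in 74 and 51. At the edge of the rule, the tile chr12:98370001-98375000 near Kcnk10 was just inside with levels of 88.7% and 84.7% in WT, 88.7% and 92.6% in hSTAT5B and 88.9% and 95.1% in hSTAT5BN642H. The tile chr2:50390001-50395000 near Mmadhc was just outside, since its level of 78.8% in WT replicate 2 was also that of hSTAT5B replicate 1.

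Wide gaps sat where few reads were counted. In the 18952 tiles with fewer than 50 reads in the shallowest library, 5.11% were higher and 7.08% lower members with a median gap of 1.85 points, and 56 gaps reached 10 points. In the 9698 tiles with 500 reads or more, 7.59% were higher and 6.53% lower, the median gap was 0.406 points, and 0 gaps reached 10 points. The widest gap in these deep tiles was 9.74 points.

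Higher and lower members sat in somewhat different DNA. CpG islands overlapped 19.2% of higher members, 9.86% of lower members and 13.3% of all tested tiles. Transcription start sites were in 15.4%, 8.73% and 11.4%, and annotated genes overlapped 58.6%, 51.0% and 53.3%. Levels between 20% and 80% were seen in 21.6% of higher members, 15.5% of lower members and 15.5% of all tiles. The palindrome TTCNNNGAA bound by STAT5 dimers, the same on both strands, was present within 100 bp of a used CpG in 16.8% of higher members, 15.9% of lower members and 16.2% of all tested tiles. Depth differed as well, with a median of 136, 120 and 118 reads in the shallowest library, and the part of depth in these shares was not tested.

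Adjacent tiles were then compared with the direction of the member. Of the 3954 higher members with a tested neighbour, 8.95% had a higher neighbour, and of the 5150 lower members 10.3% had a lower one. Over all 63411 tested tiles with a neighbour these shares were 7.78% and 10%. By chromosome, higher members made up 5.09% (chromosome 18) to 7.05% (chromosome 11) of tested tiles and lower members 7.56% (chromosome 5) to 8.73% (chromosome 14).

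The remaining CpGs of the same tiles, which the rule had not used because some library had fewer than 5 reads there, gave a second reading. Of the 31684 tiles with at least 20 such reads in every library, 41.8% lay above WT and 58.1% below at these CpGs. Higher members followed their direction in 46.6% of 2343 tiles, where the median difference was -0.291 points against 2.88 at the used CpGs. Lower members followed it in 59.3% of 2300 tiles, with a median of -0.911 against -2.90. Members with a gap of 5 points or more followed it in 55.1% of 107 higher tiles (median 0.716) and 69.0% of 84 lower tiles (median -3.94). The unused CpGs are shallow and not the same set of reads in each library, and no test was made on them.

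**Figure D1:**
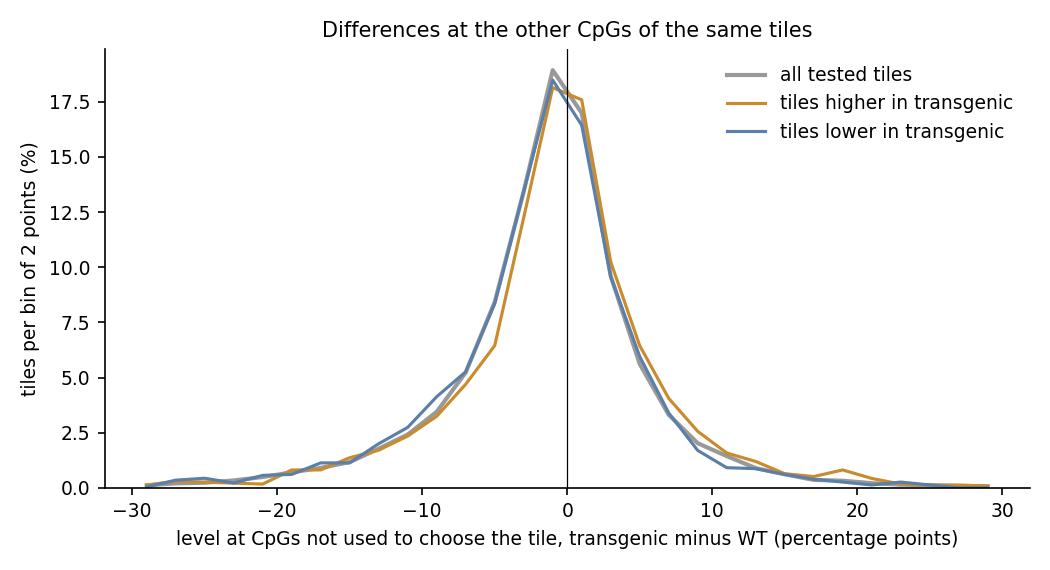
Distribution of the transgenic minus WT difference (percentage points, x axis) at CpGs that did not choose the tile, as the percent of tiles per bin (y axis), for all tested tiles and for higher and lower members. The 3 curves lie close together, with medians of -0.813 for all tested tiles, -0.291 for higher members and -0.911 for lower members.

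Among tiles with at least 50 reads in every library, the widest gap upward was in Ift140, which encodes a part of the cilium transport machinery and overlaps Tmem204. The tile chr17:25075001-25080000 had levels of 37.1% and 34.9% in WT, 59.3% and 62.7% in hSTAT5B, and 66.4% and 75.1% in hSTAT5BN642H over 6 intronic CpGs. WT averaged 36.0% ± 1.55 (SD, n = 2) and the transgenic libraries 65.9% ± 6.79 (SD, n = 4), a difference of 29.9 points. It had an adjusted p of 0.681 by limma and 0.00237 in the quasi-binomial model. Every transgenic library lay above both WT libraries by at least 22.3 points.

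Mpo, which encodes myeloperoxidase of granulocytes, came next in its tile chr11:87790001-87795000. Its levels were 38.4% and 40.5% in WT, 61.6% and 57.6% in hSTAT5B, and 61.7% and 58.8% in hSTAT5BN642H over 4 CpGs with 58 to 89 reads. In the mean over CpGs the 4 transgenic libraries sat within a narrow band, 20.4 points above WT on average and 16.6 with pooled reads. Single CpGs were scattered: WT read 68.75% and 28.6% at position 87790430, and 66.7% and 91.7% at 87793148. Transgenic and WT libraries did not overlap only at 87793331, with 0% and 5.56% in WT against 21.1% to 54.5%. Meis1, a homeobox gene of hematopoietic stem cells, showed the same shape in its tile means at chr11:18885001-18890000. They were 33.1% and 33.6% in WT, 50.4% and 48.6% in hSTAT5B, and 47.7% and 52.6% in hSTAT5BN642H. That tile had 197 to 320 reads, and its difference of 16.5 points was 7.63 with pooled reads, with an adjusted p of 0.849 by limma, and 6.93 with 10 reads per CpG.

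Car6, a secreted carbonic anhydrase, had 64.9% and 55.8% in WT against 84.6% and 79.6% in hSTAT5B and 82.0% and 82.7% in hSTAT5BN642H. Abcc4, a membrane transporter, had 45.7% and 55.7% in WT, 91.0% and 85.2% in hSTAT5B, and 69.7% and 82.3% in hSTAT5BN642H. In both, transgenic and WT did not overlap, as the rule requires, and in Abcc4 both hSTAT5B libraries lay above both hSTAT5BN642H libraries. The Abcc4 difference was 31.4 points as the mean over CpGs and 16.2 with pooled reads. Btd, which encodes biotinidase, stood at 47.3% and 49.9% in WT and between 63.7% and 67.4% in the transgenic libraries. Further tiles lay near Rasa4, Fam160b1 and Ntsr1, with gaps of 15.3, 14.3 and 13.6 points.

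The widest gap downward at this depth was in Cd8b1, which encodes the beta chain of the CD8 coreceptor. The tile chr6:71320001-71325000 had levels of 37.8% and 37.8% in WT, 18.8% and 17.5% in hSTAT5B, and 8.51% and 11.8% in hSTAT5BN642H. Its 6 intronic CpGs together carried 349 to 399 reads per library. WT averaged 37.8% ± 0.00831 (SD, n = 2) and the transgenic libraries 14.2% ± 4.85 (SD, n = 4), a difference of -23.6 points. The adjusted p was 0.681 by limma and 1.37e-06 in the quasi-binomial model. The hSTAT5BN642H mean minus the hSTAT5B mean was -8.03 points, with an adjusted p of 0.803 by limma. The WT replicates agreed in the mean but not at each CpG: at position 71323034 they read 41.6% and 30.5%, while the 4 transgenic libraries read 15.6% or less.

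Bcl11b, a zinc-finger factor that sets T cell fate, was lower in its intronic tile chr12:107995001-108000000. It read 32.4% and 30.1% in WT, 12.9% and 4.67% in hSTAT5B, and 16.8% and 8.81% in hSTAT5BN642H, on 69 to 106 reads. The gap was 13.3 points, but the WT replicates agreed in the mean and not at each CpG, with 44.4% and 0% at position 107997623 and 12.5% and 50% at 107998176, on 6 to 9 reads each. Ano10, an ion channel and scramblase family gene, had 29.1% and 28.5% in WT, 9.95% and 6.22% in hSTAT5B, and 9.49% and 6.83% in hSTAT5BN642H. Itga11, an integrin that binds collagen, had 80.3% and 80.6% in WT, 57.5% and 57.5% in hSTAT5B, and 59.9% and 63.2% in hSTAT5BN642H. In both genes the hSTAT5B and hSTAT5BN642H levels were close to each other, while their separation from WT is what the rule requires. The neighbourhoods of Olfr524, Slc39a11 and Gm11011, and the genes Camk2a, Gm17657 and Cfap77, made up the rest of the 10, with gaps of 14.7 to 15.4 points. With pooled reads the differences went from -29.8 to -16 points at Gm11011 and from -21.4 to -7.86 at Cfap77.

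**Figure D2:**
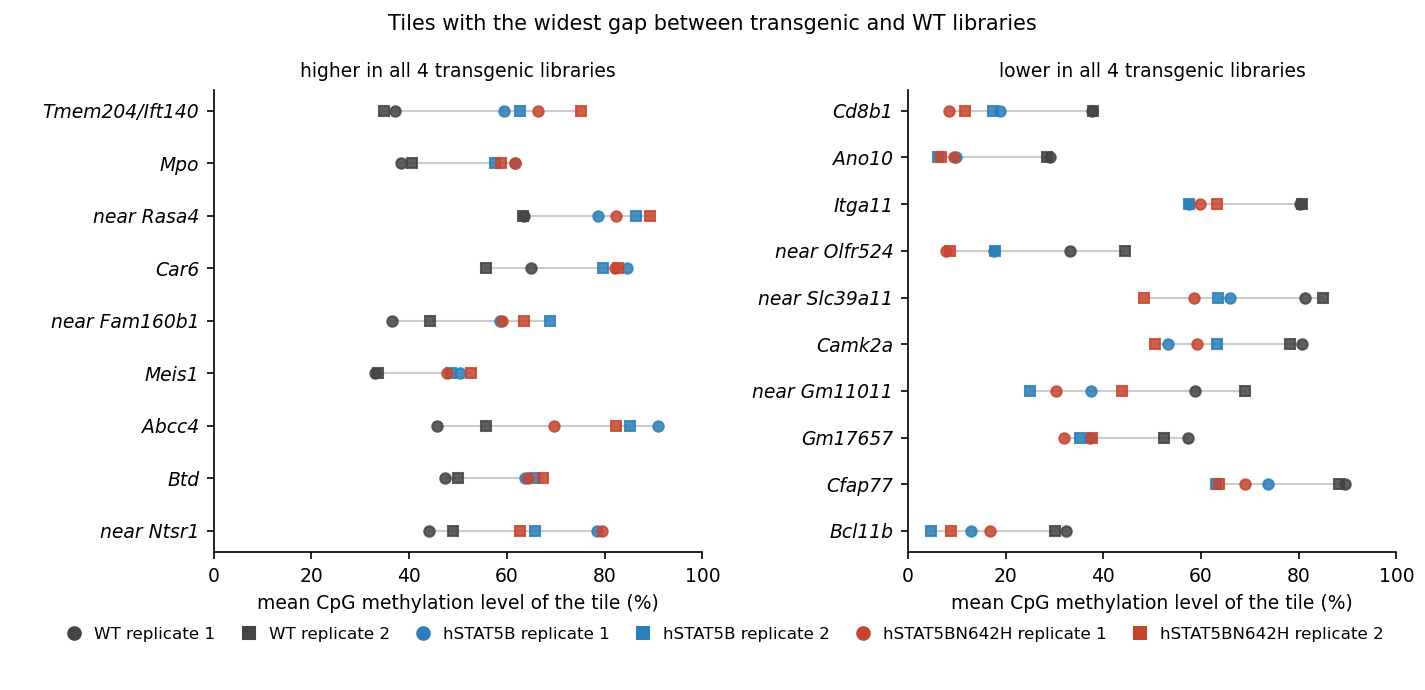
Mean CpG methylation level in percent (x axis) of 9 tiles with the widest upward and 10 with the widest downward gap at a depth of at least 50 reads per library, with 1 point per library. No transgenic point crosses a WT point, since the tiles were chosen for this, and the widest gaps are 22.3 points upward at Ift140 and 19 points downward at Cd8b1.

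Some further tiles were picked after their values had been seen. The widest gap at any depth was in the intergenic tile chr10:117980001-117985000, where 3 CpGs with 47 to 69 reads were at 83.5% and 86.1% in WT, 45.4% and 44.3% in hSTAT5B, and 12.5% and 6.25% in hSTAT5BN642H. The 3 genotypes formed separate levels there, with hSTAT5B between the others, and the adjusted p between transgenic and WT was 0.681 by limma. An exonic tile of Zdhhc23, a palmitoyltransferase gene, had 21.2% and 25.3% in WT, 58.9% and 64.3% in hSTAT5B, and 70.1% and 61.0% in hSTAT5BN642H. Its unused CpGs lay the other way by a small amount, at -3.70 points. The Hoxa3 tile chr6:52175001-52180000, a homeobox locus that also overlaps Gm28308, was picked as the member with the smallest p of the quasi-binomial fit, and its adjusted p by limma was 0.690. Its 64 CpGs were at 67.5% and 73.0% in WT, 61.6% and 65.9% in hSTAT5B, and 37.6% and 41.3% in hSTAT5BN642H. hSTAT5B was within 1.59 points of WT at its nearest library, and most of the distance lay in hSTAT5BN642H.

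Tiles were also counted within 10 kb of genes in 11 lists. The counts are read against 14.1% of all tested tiles being members, and limma called 0 methylation tiles in each list. Of 109 tiles near 20 T cell identity genes, 11 were higher and 16 lower, 24.8% together, with a median difference of -0.577 points. Near 19 genes of cytokine receptors and JAK-STAT, 14 were higher and 9 lower of 87 tiles (26.4%). Near 17 STAT5 targets 5 were higher and 11 lower of 80 (20%), and near 20 effector genes 10 were higher and 13 lower of 119 (19.3%). The naive T cell list had 12 higher and 10 lower of 104 tiles (21.2%), with a median of 0.0664. Cell cycle genes had 6 higher and 9 lower of 101 (14.9%), and DNA methylation and Polycomb genes 6 and 5 of 98 (11.2%). A list share was set beside the background only, and the lists differ from all tiles in depth and CpG density, whose part was not tested.

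**Figure D3:**
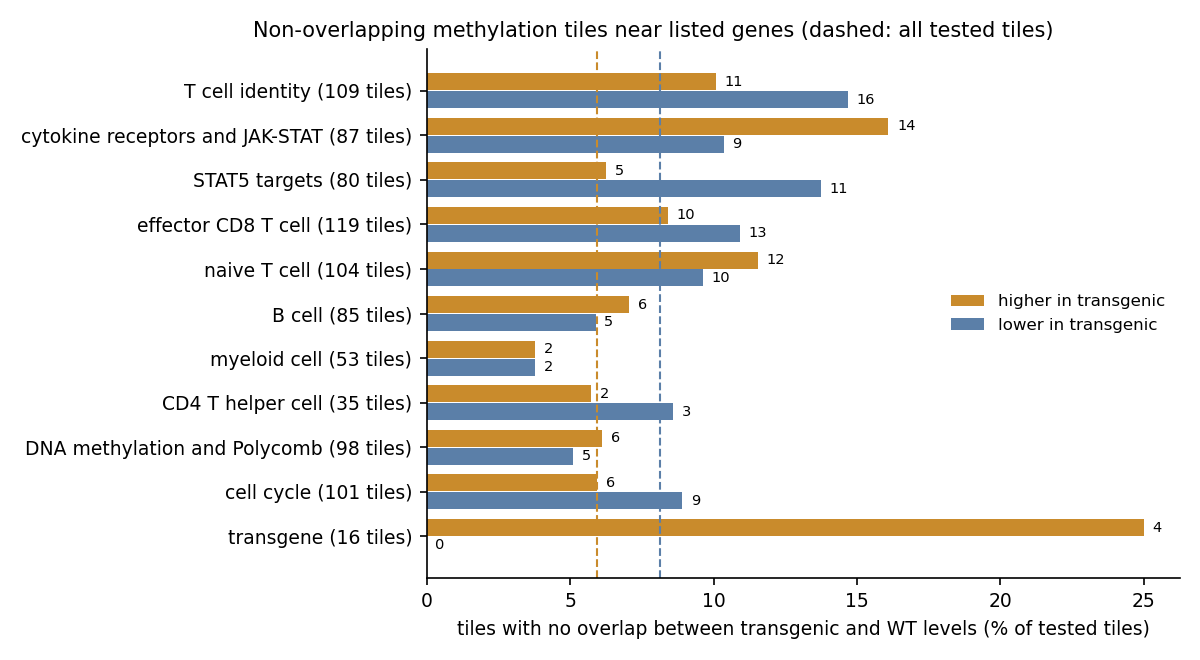
Percent of tested tiles near the genes of each list (x axis) that were higher or lower in all 4 transgenic libraries, with the count of tiles beside each bar and dashed lines at 5.94% and 8.13% for all tested tiles. The T cell identity list stands at 11 higher and 16 lower of 109 tiles, and the myeloid list at 2 and 2 of 53.

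Within the T cell identity list, Cd8b1 and Bcl11b, described above, led by gap. In the cytokine list, Il2rb, which encodes a shared chain of the IL-2 and IL-15 receptors, had 97.4% and 97% in WT, 93.3% and 86.4% in hSTAT5B, and 90.9% and 81.5% in hSTAT5BN642H. All 4 transgenic libraries were below both WT libraries there, as the rule requires. Il4ra, which encodes the IL-4 receptor alpha chain, also lay lower, with 75.8% and 75.3% in WT and 64.2% to 71.9% in the transgenic libraries, a difference of -8.66 points that was -13.5 with pooled reads.

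Members near STAT5 target genes lay on both sides of WT. In Ccnd3, a D-type cyclin, the tile chr17:47515001-47520000 had 38.1% and 68.5% in WT, 95.2% and 84.6% in hSTAT5B, and 90.3% and 94.3% in hSTAT5BN642H, with as few as 21 reads in a library. The tile near Socs3, a feedback inhibitor of cytokine signaling, read 20.6% and 22.1% in WT, 27.9% and 55.1% in hSTAT5B, and 33.0% and 47.7% in hSTAT5BN642H, a difference of 19.6 points that was 10 with pooled reads. In Ccnd3 the WT replicates were far apart, although neither reached a transgenic library, as the rule requires. The Ccnd3 difference of 37.8 points was 22.6 without WT replicate 1. The tile upstream of Tnfrsf18 and within reach of Tnfrsf4, both costimulatory receptors, read 70.4% and 66.0% in WT and 46.0% to 56.2% in the transgenic libraries.

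The effector list held Tbx21, the T-box factor of effector T cells, at 48.3% and 44.0% in WT, 70.3% and 56.3% in hSTAT5B, and 71.2% and 65.7% in hSTAT5BN642H. Cx3cr1, a chemokine receptor of effector cells, had 79.4% and 81.2% in WT against 70.8% to 74.8% in the transgenic libraries, a difference that is absent from the pooled reads (adjusted p = 0.998 by limma). The tile near Id2 lay at 98.5% and 97.4% in WT and at 87.3% to 93.0% in the transgenic libraries. Of naive T cell genes, Lef1, which encodes a factor of the TCF1 family, had 74.2% and 74.0% in WT. It had 83.1% and 81.5% in hSTAT5B, and 89.6% and 87.9% in hSTAT5BN642H, over 10 intronic CpGs with 270 to 529 reads. Bach2, a repressor that keeps T cells quiescent, lay lower, from 93.0% and 91.7% in WT to between 69.7% and 81.0%. A tile of Foxp1, which maintains naive T cells, was at 78.7% to 91.8% in the transgenic libraries against 70.2% and 60.0% in WT.

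Tet1, an enzyme that oxidizes methylcytosine, had 25.3% and 18.9% in WT, 39.0% and 40.1% in hSTAT5B, and 37.9% and 43.1% in hSTAT5BN642H over 6 intronic CpGs. All 4 transgenic libraries were above WT by at least 12.6 points, on 76 to 121 reads. Tet3, an enzyme of the same family, had a tile at 94.1% and 97.4% in WT with 100% in every transgenic library. Another Tet3 tile lay the other way, at 99.5% and 98.9% in WT and 97.4% to 97.6% in the transgenic libraries. Among cell cycle genes, Cdk6, a G1 kinase, had 68.0% and 74.4% in WT and 80.8% to 89.7% in the transgenic libraries, Mcm6 77.2% and 91.7% against 94.8% to 100%, and the tile near E2f1 45.8% and 47.1% against 49.4% to 69.4%. The Mcm6 difference of 13.5 points was 6.25 without WT replicate 1 and 20.7 without WT replicate 2, and the E2f1 difference of 13.3 was 8.12 with pooled reads.

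Marker genes of other lymph node cells were examined beside these tiles. The B cell list had 6 higher and 5 lower of 85 tiles (12.9%), and its mean level ran from 67.9% to 69.2% over the 6 libraries. The tile in Ebf1, a B cell factor, at chr11:44885001-44890000 had 80.5% and 85.2% in WT and 94.6% to 99.4% in the transgenic libraries, another Ebf1 tile 48.3% and 46.5% against 51.2% to 58.4% (7.45 points, or 12.3 with pooled reads), and a Pax5 tile 58.3% and 57.9% against 51.1% to 54.9%. The myeloid list had 2 higher and 2 lower of 53 tiles (7.55%) with mean levels of 67.7% to 69.0%. Apart from Mpo its members were the Gm49368 tile near Itgam, the tile near Fcer1g and a tile near Elane. The Gm49368 tile was at 93.8% and 91.4% in WT and 95.1% to 96.6% in the transgenic libraries. That difference of 3.38 points turned to -0.199 with pooled reads and -1.53 with 10 reads per CpG. The tile near Fcer1g was at 99.0% and 99.5% in WT against 95.2% to 97.5%. The CD4 T helper list had 2 higher and 3 lower of 35 tiles (14.3%), with mean levels of 66.1% and 66.8% in WT, 66.4% and 65.6% in hSTAT5B, and 65.0% and 64.4% in hSTAT5BN642H. Cxcr5, a follicular homing receptor, had a tile 952 bp upstream with 70.4% and 71.6% in WT, 51.2% and 60.5% in hSTAT5B, and 44.1% and 37.7% in hSTAT5BN642H, and a tile inside the gene with 68.8% and 66.1% against 72.9% to 77.2% (7.01 points, or 12 with pooled reads). Icos, a costimulatory receptor, had 49.9% and 18.6% in WT and 2.08% to 12.9% in the transgenic libraries on 35 to 85 reads, a difference of -28.1 points that was -12.4 without WT replicate 1 and -43.7 without WT replicate 2. The part of other cell types in the members was not tested.

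Inside the transgenic group, hSTAT5B and hSTAT5BN642H were set side by side, as a description, since all 4 of their levels had entered the rule. hSTAT5BN642H lay above both hSTAT5B libraries in 16.7% of higher members and below both in 20.5%, against 12.2% and 26.4% of all tested tiles. For lower members these shares were 12.8% and 24.6%. The median difference from WT was 4.06 points in hSTAT5B and 3.83 in hSTAT5BN642H for higher members, and -3.56 and -4.10 for lower members. limma called 0 tiles (0%) between the transgenes, with a smallest adjusted p of 0.602 and 7.51% of all tested tiles at an unadjusted p below 0.05. The quasi-binomial fit called 689 of the 113677 tested tiles in that contrast.

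Read numbers differed most at genes related to the transgene. Scaled to library total, 9234 tiles (8.12%) were higher and 9139 (8.04%) lower in all transgenic libraries. The median fold was 1.27 for higher and 0.757 for lower members, with 102 higher tiles at 2-fold or more and 286 lower tiles at 0.5 or less. The number of tiles that were members by both measures was 2620, 16.4% of methylation members and 14.3% of read members. Of all tested tiles, 14.1% were methylation members, and the read members were the 8.12% higher and 8.04% lower given above. Both shares of the overlap were thus near the background. With GC content, CpG number and repeat share regressed out of each library, 8472 of the higher and 8025 of the lower members were still members.

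limma called 15 of the tested tiles (0.0132%), 8 higher and 7 lower, and all were members. Vav1, an exchange factor of hematopoietic cells whose regulatory DNA is part of the transgene vector, had the largest rise in its tile chr17:57290001-57295000. It held 6.08 and 6.67 RPM in WT, 104 and 113 in hSTAT5B, and 91.7 and 91.6 in hSTAT5BN642H, or 15.7-fold more in the transgenic libraries (log2 fold change 3.87 ± 0.12 SE, adjusted p = 5.32e-11 by limma). The tile chr17:57275001-57280000 at the start of Vav1 held 13.9 and 13.9 in WT and 57.1 to 77.0 in the transgenic libraries (log2 fold change 2.23 ± 0.13 SE, adjusted p = 2.14e-07 by limma).

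Stat5a and Stat5b, the mouse genes closest to the human transgene, also gained reads. The Stat5a tile chr11:100870001-100875000 held 2.74 and 3.41 RPM in WT, 22.7 and 27.0 in hSTAT5B, and 26.1 and 26.6 in hSTAT5BN642H, a rise of 8.33-fold (adjusted p = 3.26e-08 by limma). The Stat5b tile chr11:100795001-100800000 held 5.35 and 4.83 in WT, 23.9 and 26.1 in hSTAT5B, and 26.8 and 28.7 in hSTAT5BN642H, a rise of 5.18-fold (adjusted p = 2.14e-07 by limma). Within the Stat5b tile the 4 used intronic CpGs had 0.835 to 0.899 times as many reads (RPM) in transgenic as in WT libraries, and the 4 exonic CpGs shown in capitals above had 54.5 to 74.5 times as many. Between the transgenes limma called none of these 4 tiles (adjusted p from 0.666 to 0.923).

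These tiles were also methylation members, and endogenous and vector copies cannot be told apart in their levels. The tile at the start of Vav1 read 4.64% and 3.15% in WT, 9.63% and 9.68% in hSTAT5B, and 8.82% and 10.3% in hSTAT5BN642H over 24 CpGs, a difference of 5.70 points that was 20.8 with pooled reads and 9.28 with 10 reads per CpG. The CpGs 837 and 872 bp after the annotated start were at 17.1% to 32.0% in WT and 78.0% to 96.6% in the transgenic libraries. Among used CpGs, those from 3942 to 3714 bp before the start had 0.792 to 1.18 times as many reads (RPM) in transgenic as in WT libraries. Those from 36 bp before the start to 872 bp after it had 9.60 to 13.9 times as many. Of the 16 tiles near the transgene list, 4 were higher and 0 lower (25%), and 3 of those 4 were called for more reads.

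**Figure D4:**
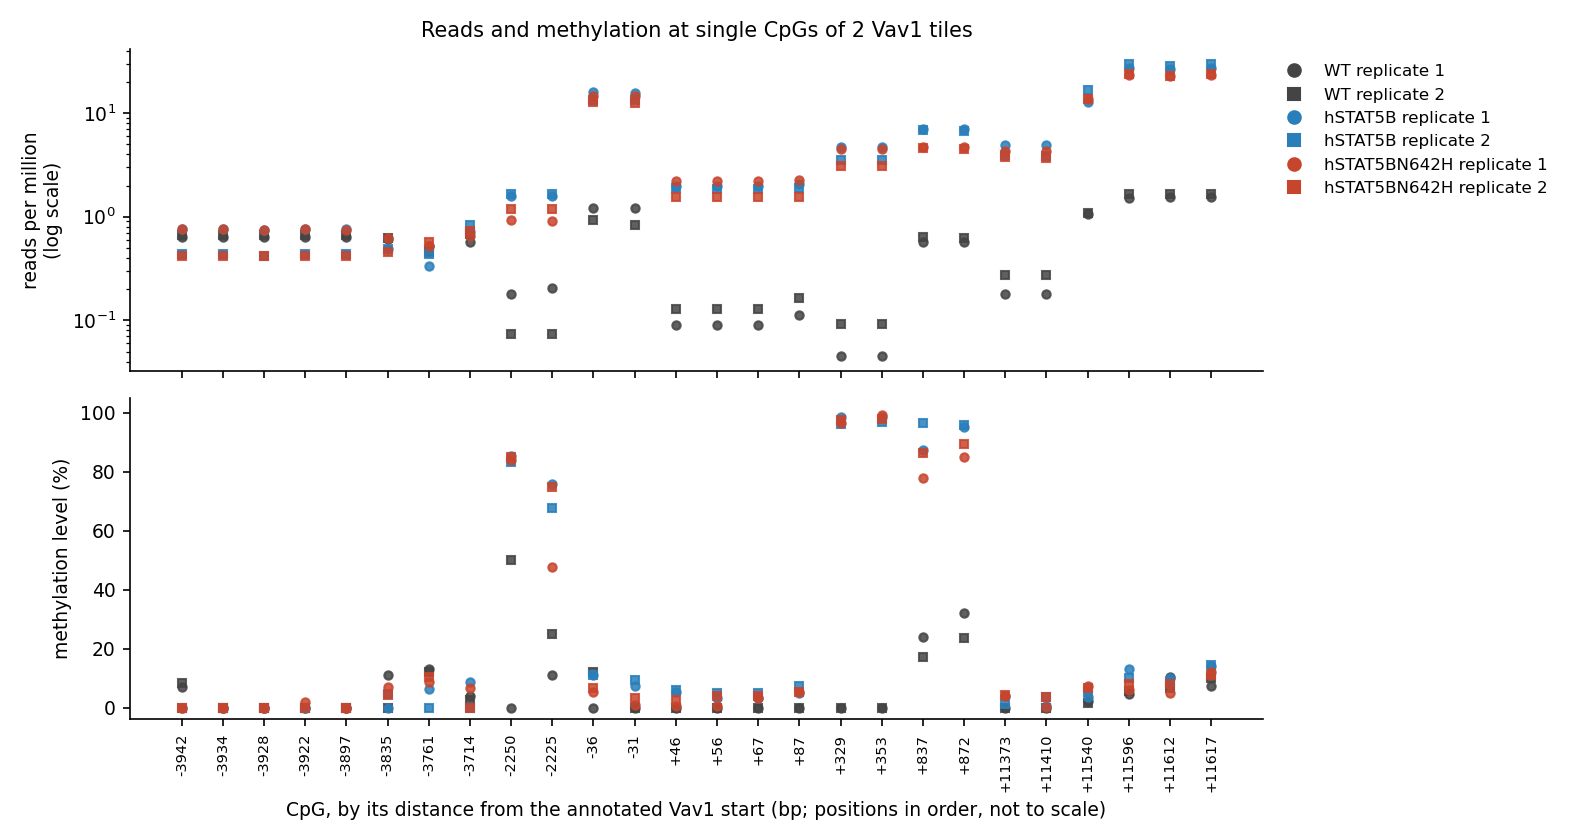
RPM (upper panel, log scale) and methylation level in percent (lower panel) at single CpGs of 2 Vav1 tiles, placed in order by distance in bp from the annotated start, with 1 point per library. The CpGs plotted have at least 100 reads over all libraries. Transgenic libraries lie above WT in reads at every plotted CpG from -2250 bp on. At +837 and +872 bp their levels are 78.0% to 96.6%, where WT libraries are at 17.1% to 32.0%.

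The other 11 called tiles were smaller. Cep128, a centriole protein gene, held 7.59 and 6.35 RPM in WT, 12.5 and 15.7 in hSTAT5B, and 16.3 and 17.2 in hSTAT5BN642H, a rise of 2.21-fold (adjusted p = 0.017 by limma). The tile chr6:129055001-129060000, which overlaps the end of Klrb1f, a receptor gene of the NK gene complex, and whose used CpGs start 2481 bp past it, rose 2.42-fold (adjusted p = 0.0109 by limma), a tile in Nhej1, a DNA end-joining gene, rose 3.85-fold (0.0448), and a tile whose nearest gene, Asap2, was 345473 bp away rose 2.32-fold (0.0307). Repeats covered 66.1% of that last tile. The Nhej1 tile held few reads, with 0.907 and 0.368 RPM in WT and 1.98 to 2.70 in the transgenic libraries. Its log2 fold change of 1.41 was 0.760 with a pseudocount of 2, and limma called it in 4 of 13 alternative settings.

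Spred2, an inhibitor of RAS-MAPK signaling, had the largest fall, in its intronic tile chr11:20000001-20005000. It held 10.7 and 4.68 RPM in WT, 2.72 and 1.69 in hSTAT5B, and 0.776 and 0.947 in hSTAT5BN642H (0.199-fold, adjusted p = 0.0116 by limma). The tile far upstream of Topaz1 held 4.38 and 2.56 in WT and 0.582 to 0.901 in the transgenic libraries (adjusted p = 0.0116 by limma). The WT replicates of both tiles differed widely. Tiles whose nearest genes were Gm11232, Slc8a1, Ywhaq, Vmn1r238 and Fam107a, at 8809 bp (Fam107a) to 497231 bp (Ywhaq), also fell, with log2 fold changes from -1.47 to -1.16 and adjusted p from 0.017 to 0.0448 by limma, and repeats covered 79.7% of the first and 82.0% of the second. The tiles that fell depended on single libraries: limma called 7 lower with all libraries, 0 without WT replicate 1, 145 without WT replicate 2, 4 without hSTAT5B replicate 1, 3 without hSTAT5B replicate 2, 1 without hSTAT5BN642H replicate 1 and 0 without hSTAT5BN642H replicate 2. The counts of tiles called higher were 8 with all libraries, 45 without WT replicate 2 and 4 or 5 without WT replicate 1, hSTAT5B replicate 2 or either hSTAT5BN642H replicate. Further wide read gaps that limma did not call lay in Htr5b and Fnbp1 and in tiles whose nearest genes were Isl1 (115412 bp), Arid1a, Olfr1312 and Foxd1 (3273 to 11257 bp), with adjusted p of 0.0716 to 0.243. The 4 tiles of Vav1, Stat5a and Stat5b were called in 13 of 13 alternative settings, and the other 11 in 4 to 9 of 13.

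**Figure D5:**
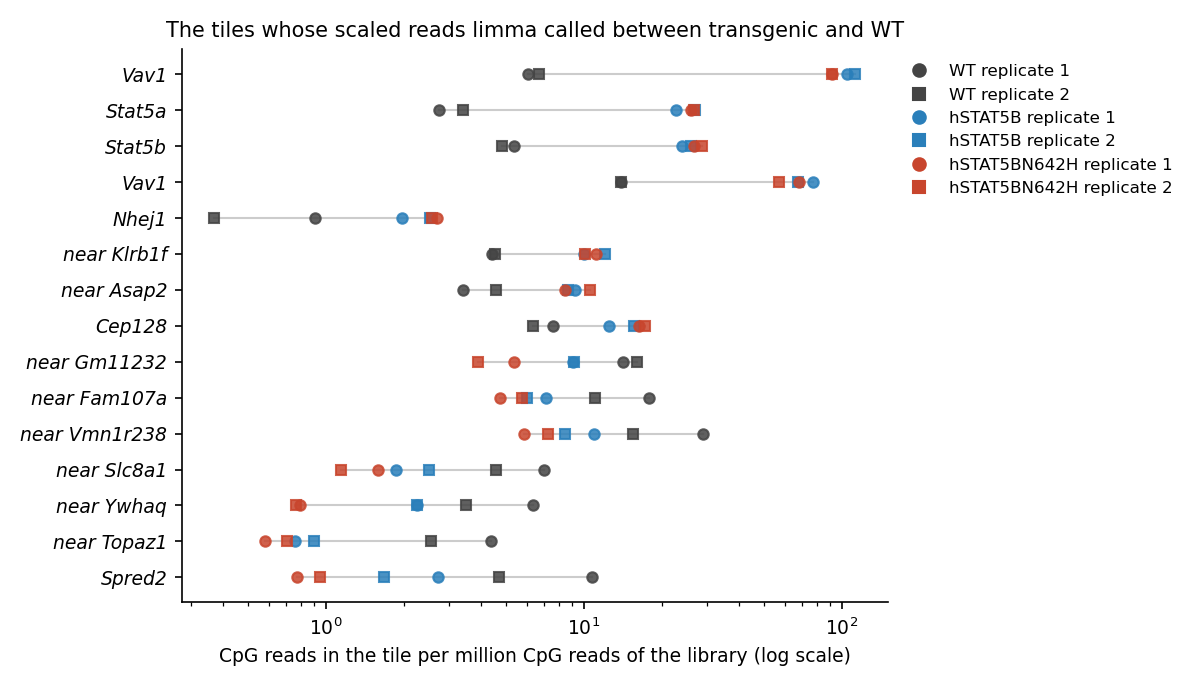
RPM (x axis, log scale) in the 15 tiles called by limma, with 1 point per library. "Near" in a label names the nearest gene, at up to 497231 bp. The Vav1 tile with the largest rise spans 6.08 to 6.67 in WT and 91.6 to 113 in the transgenic libraries, and in the tiles that fell the WT points lie to the right of all transgenic points.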

How the data were processed

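RRBS of lymph node CD8+ T cells was deposited as 1 file per library. Per the labels and methods, the authors trimmed reads with Trimmomatic, aligned them to GRCm38 (mm10) with BSMAP in RRBS mode and deposited, for each CpG, the methylated and total read counts. The authors also deposited a score up to 1000 per CpG, the methylated share, which served only as a check of those counts. Versions of these tools are not given in the sources used here.

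Levels of autosomal CpGs that every library covered with 5 or more reads were averaged, unweighted, over 5-kb tiles holding 3 or more of them. limma 3.58.1 (R 4.3.3) was fitted with a mean for each genotype to log2 ratios of methylated to unmethylated pooled reads (offset 1), and to log2 RPM (pseudocount 0.5, with a mean-variance trend). The contrasts were transgenic, as the mean of both transgenes, minus WT, and hSTAT5BN642H minus hSTAT5B, called at a Benjamini-Hochberg adjusted p below 0.05. Residual degrees of freedom were 3, with prior degrees of 3.11 for levels and 13.4 for reads. The mean over tiles was compared by a two-sided exact permutation test.

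Named tiles were the 10 per direction with the largest gap at 50 reads or more in every library, the 8 per direction for reads, every tile called by limma for reads, and up to 3 members per gene list within 10 kb of a listed gene. Some tiles that this rule selects are not reported here. The members and lists were chosen with earlier results of these data known. Genes came from GENCODE M21, sequences from RefSeq GRCm38.p6, and 15607 autosomal CpG islands were found by length, GC and observed over expected CpG. Reads are counted at every CpG they cover, so the reads of a tile are not independent, and depth limits a tile's precision. Replicate numbers did not pair libraries: deviations of same-numbered libraries correlated between -0.0931 and 0.0890. Alternatives changed CpG, tile, depth, scaling, model and library choices. Tables and figures were made with matplotlib 3.10.9, scipy 1.17.1, pandas 2.3.3 and numpy 2.4.6 under Python 3.11.15, and the limma code was tested on simulated data.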

Additional observations from a re-analysis of the deposited data

Results flagged for a closer look

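Data that the level rule left out held 14 CpGs with at least 50 reads in each transgenic library and fewer than 10 in each WT library, a signal above that of the control libraries, and 0 CpGs showed the reverse pattern. Stat5a held 3 of them, all exonic, with 179 to 353 reads per transgenic library, 4 to 6 per WT library and transgenic levels of 98.1% to 99.3%. Stat5b held 4, all exonic, with 186 to 364 reads against 3 to 6 and levels of 98.7% to 99.3%. Vav1 held 5, with 78 to 305 reads against 2 to 7, of which 3 exonic CpGs were at 2.74% to 3.74% and 2 intronic CpGs at 97.1% and 98.4%. The remaining 2 lay upstream of Vav1, with 60 to 75 reads against 4 to 9 and levels of 84.4% and 67.0%.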

How the results depend on the processing

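Asking for 10 CpGs per tile gave 2053 higher and 1955 lower methylation members of 27379 tested tiles, against 6757 and 9244 of 113677. It turned the mean difference over tiles to 0.0420 points. Of 113677 tested tiles, the quasi-binomial model called 341 between transgenic and WT and 689 between the transgenes where limma called 0. Without the CpG filter 13239 of 238831 tiles were higher and 33398 lower in reads, and limma called 5 higher and 1 lower, as it did with 2 groups only. Leaving out libraries gave 9594 to 23291 higher and 11599 to 24849 lower methylation members, 12049 to 28623 higher and 11538 to 24653 lower read members, 4 to 45 read tiles called higher and 0 to 145 called lower. With fewer libraries the rule is easier to meet, and a lone library is assumed to vary like the other groups. Without WT replicate 2 limma called 45 higher and 145 lower, and without WT replicate 1 it called 5 and 0. With the replicate block limma called 0 methylation tiles in either contrast, and 8 higher and 9 lower for reads. Of the named tiles, the Gm49368 tile near Itgam reversed, to -0.199 with pooled reads and -1.53 with 10 reads per CpG. The other refitted methylation tiles, of the 50 named by gap or list, kept their direction under these settings. In 20 refits the difference moved by more than the larger SD of the WT or the transgenic libraries. All 15 called read tiles kept their direction, although 71 refits lost the call and 124 kept it.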
